A study of Drosophila melanogaster with 19 samples.

Results

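The genes described here are 9 genes by which the somatic cells of the *Drosophila melanogaster* testis are recognised. *esg*, *Fas3*, *hh* and *shg* mark or serve the hub, and *tj*, *zfh1*, *chinmo*, *eya* and *so* belong to the cyst cell lineage. They were chosen by symbol, and each of the 9 has a row among the 12810 genes of the deposited table. RNA was sequenced from cysts picked by needle out of torn testes. Spermatocyte cysts arrested in *always early* (*aly*) mutants gave 2 libraries. The other groups, for which the labels give no genotype, are the niche with 2 libraries, gonialblasts (GB, the stem cell daughters) with 2, spermatogonial cysts of 4 cells (S4) with 2, of 8 cells (S8) with 2 and of 16 cells (S16) with 1. Early spermatocytes (EC) have 3 libraries. Late spermatocytes were deposited as LC1, with 3, and LC2, with 2. The labels name no *aly* allele, strain or age, and tag every sample as germline stem cell whatever its stage. They do not say whether libraries of a group came from separate animals, so the p-values below measure the spread between libraries, which may be technical.

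The hub is a small cluster of somatic cells at the testis tip. Germline stem cells and cyst stem cells attach to it through cadherins, and it sends them JAK-STAT, Hedgehog and BMP signals. Each germline cyst is wrapped by somatic cyst cells, which do not divide and which exchange early identity factors for late ones as the germ cells inside grow into spermatocytes. A picked cyst therefore holds germ cells and somatic cells together. In such a mixture, fewer cells of a type and less RNA per cell cannot be told apart.

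The deposited table gives RPKM, reads scaled to gene length and to a size per library, with 1 value per stage that is the mean of its libraries. Whole reads of 20 libraries could be recovered from those means, 1 more than the 19 labelled, since 3 went into the LC2 mean. The letters a, b and c rank the libraries of a stage by size, and values are given in that order. Depth ranged from 810426 reads (S16) to 5108439 (*aly* library a). A count of 3 reads in a gene of 1 kb equals 0.611 to 3.22 RPKM, depending on the library. Germline markers (*vas*, *nos*, *bam*, *bgcn*, *aub*, *Rbp4*) were present in each stage, with a summed level of 177 to 983 RPKM. Markers of tissues outside the cyst were uneven. The 5 gut genes summed to 484 and 561 RPKM in the GB libraries and to 10.4 and 1662 in the S4 libraries, and all 5 were at 0 in niche and S16. The 8 muscle sheath genes summed to 160 to 177 RPKM in GB, S4 and S8 and to 16.9 to 86.7 elsewhere.

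All 9 genes are protein-coding in the Ensembl annotation of BDGP6.54. The build behind the deposited values is not given in the sources used here. On BDGP6.54, *tj* (FBgn0000964) lies on 2L at 19464267 to 19467758, *chinmo* (FBgn0086758) on 2L at 1651258 to 1704682, and *eya* (FBgn0000320) on 2L at 6527447 to 6546976. *esg* (FBgn0001981) was matched by symbol, on 2L at 15333866 to 15336138, and *Fas3* (FBgn0000636) lies on 2L at 18320102 to 18393441. *hh* (FBgn0004644) lies on 3R at 23128169 to 23141906. *zfh1* (FBgn0004606), on 3R at 30765926 to 30789202, shares 315 exon bases with the antisense RNA *asRNA:CR45189*. Whether counting used strand is not stated, so reads from that overlap cannot be assigned to one of the pair. *so* (FBgn0003460) and *shg* (FBgn0003391) lie on 2R. Lengths behind the RPKM values ran from 2287 bases (*esg*) to 12616 bases (*chinmo*).

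**Figure D1:**
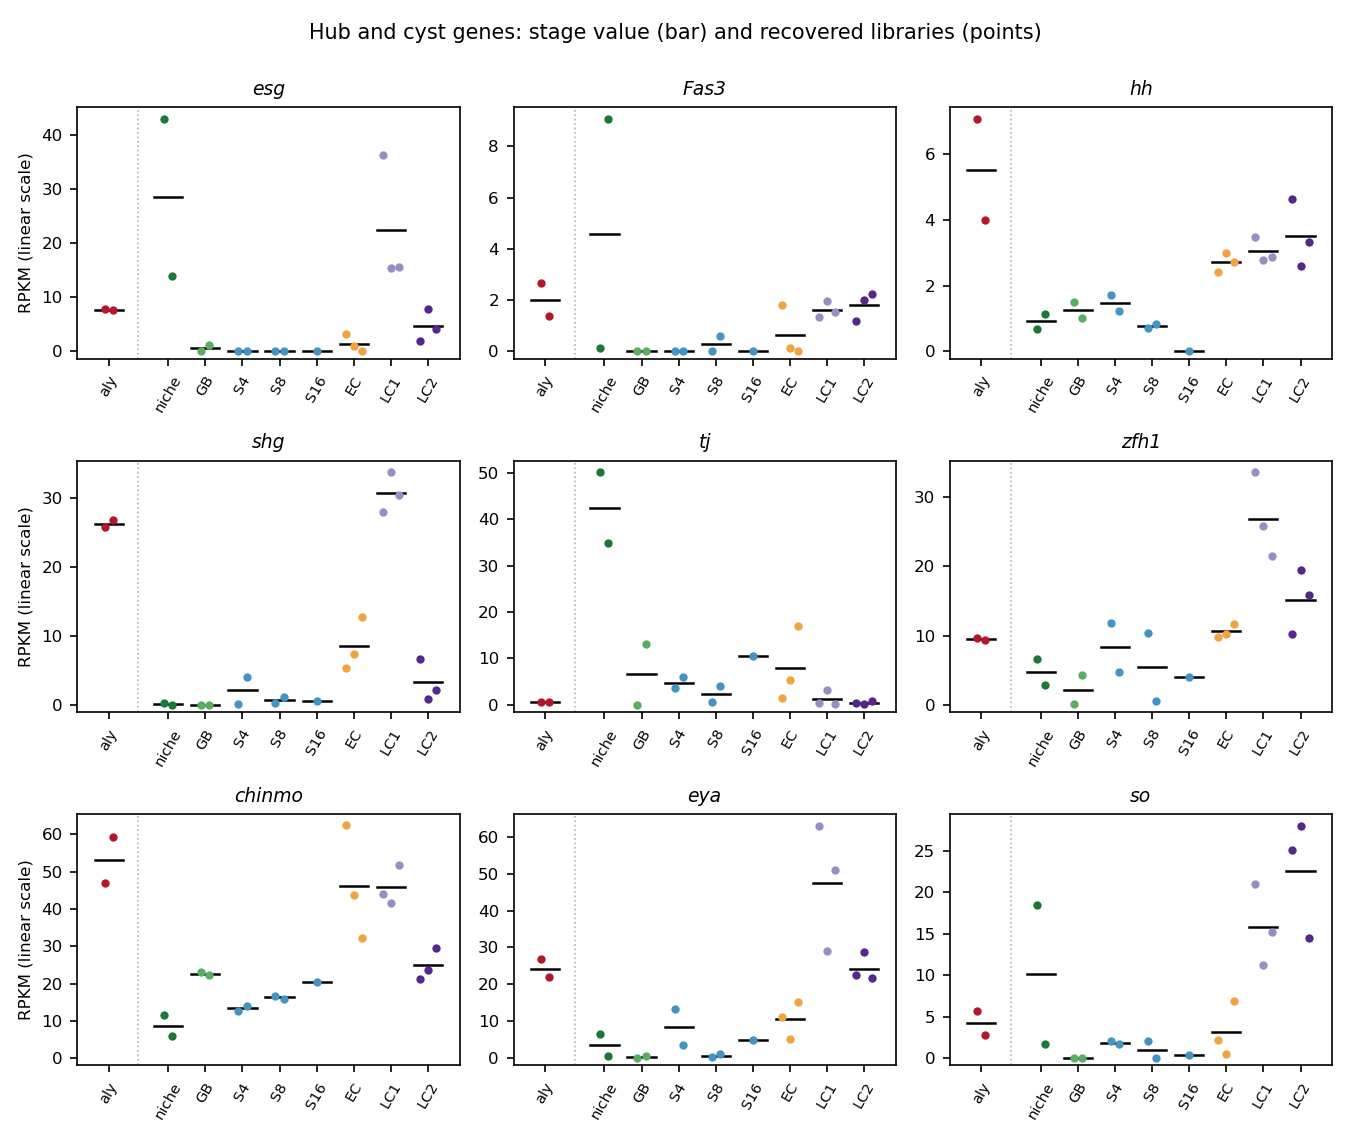
RPKM (linear scale, a separate y axis per gene) of the 9 hub and cyst genes. Bars are the authors' stage values and points the 20 recovered libraries. *aly* stands left of the dotted line, and the 8 stages from niche to LC2 follow. *tj* is highest in niche at 42.4 RPKM, whereas *zfh1* (26.9), *eya* (47.6) and *shg* (30.8) are highest in LC1 and *so* (22.5) in LC2.

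Among the hub genes, *esg* had its peaks at both ends of the series. It encodes a Snail-family transcription factor that keeps hub cells from turning into cyst cells. The niche libraries held 42.9 and 13.9 RPKM of *esg* (140 and 36 reads), the GB libraries 0 and 1.15, and all 5 spermatogonial libraries 0. A count of 3 reads over those 5 libraries would give 0.118 RPKM, so *esg* was at least 241-fold lower in spermatogonia than in niche. It reappeared in EC at 3.24, 1.01 and 0 RPKM, in LC1 at 36.3, 15.4 and 15.6, and in LC2 at 1.94, 7.76 and 4.10. The LC1 level, from 64 to 279 reads per library, thus overlapped that of the niche, and the LC2 libraries all lay below both.

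*Fas3*, an immunoglobulin-family adhesion protein used as a hub marker, was near the limit of detection. Its highest stage value was 4.59 RPKM in niche, and that value came from 1 library, with 59 reads (9.07 RPKM) in library b and 1 read (0.122) in library a. *Fas3* had no read in GB, S4 or S16, and 8 reads in 1 of the S8 libraries. EC held 1.82, 0.134 and 0 RPKM, LC1 1.34, 1.97 and 1.55, and LC2 1.19, 2.0 and 2.22. Every LC1, LC2 and *aly* library (2.66 and 1.37 RPKM in *aly*) thus held over 1 RPKM of *Fas3*, at 16 to 37 reads per LC1 library, and in each other stage at least 1 library held less.

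*hh*, the Hedgehog ligand that the hub sends to cyst stem cells, was low in the niche itself. The niche libraries held 0.681 and 1.15 RPKM, from 3 and 4 reads, which is at the level of 3 reads. Levels were alike in GB (1.51 and 1.02 RPKM), S4 (1.70 and 1.22) and S8 (0.699 and 0.843), and S16 had no read. The 3 EC libraries held 2.40, 3.0 and 2.70 RPKM, the LC1 libraries 3.47, 2.78 and 2.88, and the LC2 libraries 4.64, 2.58 and 3.31. On the deposited scale all 9 EC and late libraries lay above all 9 earlier ones. The earlier libraries held 0 to 15 *hh* reads and the EC libraries 9 to 12. Relative to recovered reads they overlapped, with 15 of 2058600 in S4 library a and 12 of 1850597 in EC library a. The rank of *hh* among all genes was higher in niche, since 41.8% of all genes had a lower stage value in niche and 25.4% in LC1. Genes without a read count as lower in this rank. A read was seen for 7601 to 7798 genes in the niche libraries and for 11728 to 12286 in LC1. The rank is thus no measure of a higher relative level of *hh* in niche.

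*shg*, E-cadherin, holds stem cells to the hub at adherens junctions. It was almost absent from the niche libraries, at 0.259 RPKM (2 reads) and 0. No read was seen in GB, and *shg* stood at 0.129 and 4.03 RPKM in S4, at 0.199 and 1.12 in S8 and at 0.596 in S16. The 3 EC libraries held 5.35, 7.42 and 12.7 RPKM, the LC1 libraries 28.0, 33.8 and 30.5, and the LC2 libraries 6.62, 0.901 and 2.20. On the deposited scale the EC libraries lay above all earlier ones and below all LC1 libraries, and the LC2 libraries overlapped EC. Relative to recovered reads, S4 library b (29 of 1103297) lay above EC library a (47 of 1850597).

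In the cyst lineage, *tj*, the large Maf factor of cyst stem cells and early cyst cells, was a niche gene. It stood at 50.1 and 34.8 RPKM in the niche libraries (227 and 125 reads). There 75.1% of all genes had a lower stage value, with genes without a read again counted as lower. *tj* then stood at 0 and 13.1 RPKM in GB, at 3.64 and 5.92 in S4, at 0.510 and 3.96 in S8 and at 10.5 in S16 (31 reads). EC held 1.36, 5.34 and 16.9 RPKM, LC1 0.281, 3.18 and 0.175, and LC2 0.429, 0.140 and 0.804. When the stages were ranked by their *tj* value, the niche libraries stood apart from the next stage, S16, and all later neighbours in that ranking overlapped. Within EC and within LC1 the library highest in *tj* was also the highest in the germline genes *vas* (173 RPKM in EC library c, 34.4 in LC1 library b) and *aub* (315 and 62.7). The other libraries held 74.9 and 138 RPKM of *vas* in EC and 3.88 and 4.95 in LC1. The other germline genes were mixed. *nos* was also highest in EC library c (83 RPKM) and LC1 library b (21.2). *bam* was highest in LC1 library b (18.2) but in EC library a (40.1). *bgcn* and *Rbp4* were highest in EC library b (130 and 402), and in LC1 libraries a (111) and c (164). The part of cyst stage in these *tj* values was not tested.

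*zfh1*, a zinc finger and homeodomain repressor that maintains cyst stem cells, did not follow *tj*. It was low in the niche libraries, at 6.57 and 2.85 RPKM, and in GB, at 0.0755 and 4.24. It varied between the libraries of S4 (11.8 and 4.74 RPKM) and of S8 (10.4 and 0.561), and stood at 3.99 in S16. The level was even in EC, at 9.86, 10.3 and 11.7 RPKM, and highest in LC1, at 33.6, 25.8 and 21.5, with 10.3, 19.5 and 15.9 in LC2. On the deposited scale LC1 lay above every other stage. Relative to recovered reads, S4 library a (209 of 2058600) lay above LC1 library c (239 of 2535609). Relative to all genes its place hardly moved, with 45.5 to 54.2% of genes lower from niche to LC2. As for *hh*, genes without a read count as lower, and their number differs between stages, so these places are not strictly comparable.

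*chinmo*, a BTB zinc finger factor required for cyst stem cell renewal and for the male identity of the somatic cells, was the most steadily detected of the 9. Its lowest library, in niche, still held 83 reads. The niche libraries held 11.6 and 5.82 RPKM, and the pairs of GB (23.1 and 22.3), S4 (12.7 and 14.1) and S8 (16.8 and 15.9) were close, with 20.4 in S16. EC held 62.6, 43.7 and 32.2 RPKM, LC1 43.9, 41.7 and 51.7, and LC2 21.3, 23.7 and 29.6. The niche was the lowest stage and did not overlap any other, EC and LC1 overlapped, and LC2 lay below LC1 with no overlap.

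*eya* and *so* encode the Eyes absent coactivator and its homeodomain partner Sine oculis, and both mark the cyst cells of spermatocytes. *eya* held 6.66 and 0.720 RPKM in niche and 0 and 0.571 in GB. It was higher in S4 (13.4 and 3.67) than in S8 (0.293 and 1.06), with 4.96 in S16. EC held 11.2, 5.24 and 15.1 RPKM, LC1 63.0, 29.1 and 50.9, and LC2 22.5, 28.8 and 21.7. On the deposited scale all late libraries lay above all earlier ones, and LC1 lay just above LC2 without overlap. Relative to recovered reads, S4 library a (141 of 2058600) lay above LC2 library c (94 of 1439389).

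*so* differed from *eya* at the tip. It held 18.5 RPKM (82 reads) in niche library a and 1.71 (6 reads) in library b, and no read in GB. Spermatogonia had little, at 2.03 and 1.70 RPKM in S4, 2.09 and 0 in S8 and a lone read in S16. EC held 2.19, 0.497 and 6.87 RPKM, LC1 21.0, 11.2 and 15.2, and LC2 25.1, 28.0 and 14.5. The late libraries overlapped niche library a and lay above all the others. Across the 20 libraries Pearson's r of log2(RPKM + 1) between *eya* and *so* was 0.79, a description over libraries that share stages and differ in depth.

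Differences between stages were described in 2 ways. Stage values were called different when at least 4-fold apart after adding 1 RPKM, over 11810 genes. Where simulated data of the same groups gave under 5% of false calls, limma differences of log2(RPKM + 1) ± SE over 12480 genes were also tested, with Benjamini-Hochberg adjustment at 0.05 and at least 8 RPKM on the higher side. Calls are thus given for LC2 against LC1 and for *aly*, set against EC and against late spermatocytes (LC1 and LC2 weighted 3 to 2). *Fas3* and *hh* do not reach 8 RPKM in any stage and could not be called. Numbers of genes refer to the 9 unless said otherwise.

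Leaving the niche for GB, 7 of the 9 stage values were smaller. In GB against niche 4 of 9 were at least 4-fold lower, beside 9.36% of all genes, and 0 were higher, beside 9.41%. These 4 were *tj* (6.53 RPKM in GB and 42.4 in niche), *so* (0 and 10.1), *esg* (0.575 and 28.4) and *Fas3* (0 and 4.59). With 3 reads over both GB libraries as the floor, *so* was at least 42.3-fold and *Fas3* at least 35.6-fold lower in GB. The libraries did not overlap for these 4 or for *eya*, beside 20.3% of all genes with every GB library below niche. For *Fas3* this rests on 1 read in niche library a. For *eya* it rests on 3 reads in niche library b (0.72 RPKM) against 4 in GB library b (0.571), a gap set by library size. *chinmo* had the larger value in GB, at 22.7 RPKM against 8.69 in niche, with both GB libraries above, as did *hh* with overlapping libraries (1.27 and 0.913). The median log2 difference of stage values was -1.87 over the 9 and 0.00 over all genes, and it was also -1.87 with the 2 genes listed at 0 in GB put at their bounds.

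Single libraries decided several of these values. Without GB library b, whose 79 *tj* reads face none in library a, the *tj* difference was -5.44 in place of -2.53, and without GB library a it was -1.63, short of 4-fold. Without niche library a the difference of *so* was -1.44, and without niche library b that of *Fas3* was -0.17. *esg* stayed between -4.88 and -3.24 whichever library was left out. Of the 9 other hub genes, 8 were among the genes compared, of which 4 were at least 4-fold lower in GB than in niche and 1 was higher. They did not divide between the niche libraries in one way. *os*, the Unpaired ligand of the hub, held 51.1 and 2.48 RPKM in the niche libraries and *magu*, a BMP modulator, 180 and 50.8 (library a first). *CadN*, N-cadherin, held 7.90 and 2.41 RPKM there, and *os* and *CadN* had no read in GB. *hdc* was instead lower in niche library a, at 57.5 and 62.5 RPKM in GB and 1.01 and 8.39 in niche, and is the 1 that was higher in GB. *arm*, beta-catenin, was even in the niche libraries, at 173 and 160 RPKM, and *upd3*, another Unpaired ligand, held 1.26 and 1.99.

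**Figure D2:**
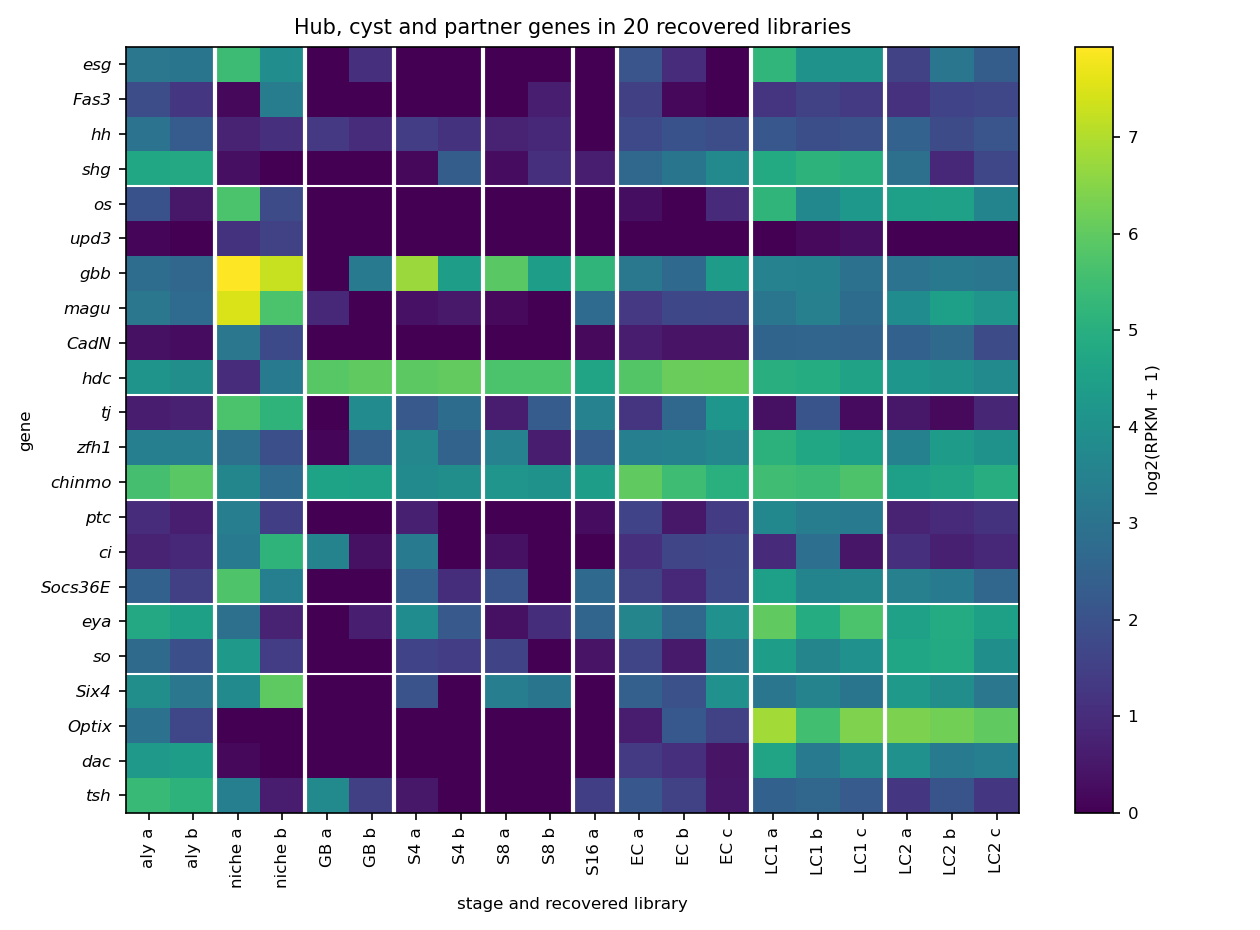
log2(RPKM + 1) of the 9 hub and cyst genes and 13 related genes (rows) in the 20 recovered libraries (columns, *aly* first, then niche to LC2). White lines part stages and groups of genes. *os* and *esg* are both highest in niche library a, have reads in every late library and are at 0 in all 5 spermatogonial libraries. *gbb*, *magu* and *upd3* are lower in every late library than in niche, and *hdc* is higher.

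Dividing spermatogonia (S4, S8 and S16) compared with niche gave the same 4 genes. *tj* stood at 4.90 RPKM in spermatogonia and 42.4 in niche, *so* at 1.23 and 10.1, *esg* at 0 and 28.4 and *Fas3* at 0.121 and 4.59. These 4 of 9 at least 4-fold lower stand beside 6.67% of all genes, and 0 were higher, beside 10.1%. Every spermatogonial library lay below niche for *tj* and *esg* and above it for *chinmo*, 3 of 9 beside 19.9% of all genes in either direction, while *so* and *Fas3* overlapped. The values of these 2 each rested on 1 niche library, since the difference of *so* was -0.28 in place of -2.32 without niche library a, and that of *Fas3* was -0.00 in place of -2.32 without niche library b. The median difference was -0.02 over the 9 and 0.00 over all genes, with or without *esg* at its bound. GB and spermatogonia share the niche libraries as their comparator.

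Between successive divisions few of the genes moved. In S4 against GB *eya* was at least 4-fold higher, at 8.54 RPKM in S4 and 0.285 in GB, which is 1 of 9 beside 7.48% of all genes, and 0 were lower, beside 6.54%. In S8 against S4 *eya* was at least 4-fold lower, at 0.677 and 8.54, again 1 of 9, beside 3.77%, and 0 were higher, beside 3.68%. The S4 value rests mostly on library a, which held 141 *eya* reads against 18 in library b. Without library a the differences were 1.86 for S4 against GB and -1.48 for S8 against S4. In S16 against S8 0 of 9 were 4-fold apart, beside 2.51% of all genes higher and 8.89% lower. *tj*, at 10.5 RPKM in S16 and 2.24 in S8, and *chinmo*, at 20.4 and 16.3, had larger values in the lone S16 library, whereas *zfh1* had 3.99 and 5.47. The muscle sheath genes were also higher in S4 library a, where they summed to 257 RPKM against 63.3 in library b, with *Mlc2* at 104 and 6.25. The gut genes summed to 10.4 RPKM in library a and 1662 in library b. The part of either in the *eya* values was not tested.

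In EC against spermatogonia all 9 stage values were higher, and the median of all genes was higher as well. 1 of 9, *shg*, was at least 4-fold higher (8.48 RPKM in EC and 1.22 in spermatogonia), beside 19.8% of all genes, and 0 were lower, beside 5.99%. Its difference of 2.10 fell short of 4-fold without S4 library a (1.66), S8 library a (1.98) or EC library c (1.74). The median difference was 0.97 over the 9 and 0.44 over all genes. Scaled to total recovered reads, all 9 stayed higher, but the median over all genes was 0.06. On that scale *tj* and *zfh1* stood at 0.13, *chinmo* at 0.95 and *shg* at 1.73, short of 4-fold. Under quantile scaling the median difference over all genes was -0.17, and 6 of the 9 turned negative. Among them were *eya* (1.02 as deposited, -0.31 rescaled), *so* (0.91 and -0.85), *tj* (0.59 and -0.71) and *zfh1* (0.67 and -0.54). *chinmo* (1.47 and 0.69), *shg* (2.10 and 0.29) and *esg* (1.27 and 0.28) stayed positive. On the deposited scale *chinmo*, *shg* and *hh* were also the 3 genes whose EC libraries all lay above all spermatogonial ones, beside 31.1% of all genes. Relative to recovered reads *shg* and *hh* overlapped, as given above.

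The limma fit of all groups gives no calls for this step, but a fit of the EC and spermatogonial libraries alone passed the simulated test. In that fit 2 of 9 passed, beside 38.4% of all genes tested in either direction. Both rose in EC, beside 28.4% of all genes, and none of the 9 fell. *chinmo* rose by 1.44 ± 0.35 (limma, adjusted p = 0.0111) and *shg* by 2.27 ± 0.69 (adjusted p = 0.0264). *eya*, at 10.5 RPKM in EC and 4.68 in spermatogonia, had a difference of 1.41 ± 0.68 (adjusted p = 0.117). This fit used the deposited scale and was not repeated on the other scalings.

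In late spermatocytes compared with EC, *so* and *esg* had larger values and *tj* a smaller one. *so* stood at 18.5 RPKM in late spermatocytes and 3.19 in EC, and *esg* at 15.3 and 1.42, both at least 4-fold higher, which is 2 of 9 beside 22.6% of all genes. *tj* was at least 4-fold lower, at 0.910 and 7.88, which is 1 of 9 beside 7.06%. The *esg* difference rested on LC1, at 2.75 with both late sets and 1.21 with LC2 alone, whose libraries overlapped EC. The *tj* difference rested on EC library c, at -2.22 with it and -1.19 without it, and that of *so* was 2.22, or 1.82 without EC library b. *eya*, at 38.3 and 10.5 RPKM, fell short of 4-fold after the pseudocount (difference 1.77). Every late library lay above EC for *eya* and *so*, 2 of 9 beside 28.7% of all genes, and *tj* overlapped between the stages. The median difference was 1.0 over the 9 and 0.12 over all genes. *eya*, *so*, *esg*, *zfh1* and *shg* stayed positive under both other scalings, and *tj* and *chinmo* stayed negative. *Fas3* and *hh* turned negative under quantile scaling, where the median difference over all genes was -0.35.

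For this step the limma fit of all groups gives no calls, and a fit of fewer libraries is described in its place. Its share of false calls in simulated data is not given here, so genes that pass in it are not counted as calls. In limma of the EC and late libraries alone 4 of 9 passed as higher, beside 28.1% of all genes tested, and 0 as lower, beside 27.6%. The difference was 1.76 ± 0.36 for *eya* (limma, adjusted p = 0.00151) and 2.48 ± 0.49 for *so* (adjusted p = 0.00128). It was 2.57 ± 0.53 for *esg* (adjusted p = 0.00159) and 0.92 ± 0.29 for *zfh1* (adjusted p = 0.0159). *tj* had a difference of -1.95 ± 0.62 (adjusted p = 0.0178) but stayed under 8 RPKM in both stages. *shg* averaged 19.8 RPKM in late spermatocytes and 8.48 in EC, and its difference of 0.56 ± 0.44 joins LC1 libraries above EC with LC2 libraries at or below it. *Optix*, a relative of *so*, was 0 in each library before EC and held 45.8 to 114 RPKM in late libraries, against 0.519 to 3.58 in EC.

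LC2 and LC1 carry the same label text and are told apart by sample title. In LC2 against LC1 *shg* was the one gene of the 9 that passed, 1 lower call beside 3.37% of all genes and 0 higher calls beside 1.14%. *shg* averaged 3.24 RPKM in LC2 and 30.8 in LC1, and it fell by 3.14 ± 0.57 on the log2 scale (limma, adjusted p = 0.00544). Every LC2 library lay below every LC1 library, and the call held without each library in turn, at -3.68 to -2.68. It was lost with a pseudocount of 0.1 (-3.63).

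*esg* averaged 4.60 RPKM in LC2 and 22.4 in LC1, a log2 difference of -2.09 ± 0.60 that missed the threshold (limma, adjusted p = 0.0544). In the fit of these 2 sets alone it passed (adjusted p = 0.0149), as did *chinmo* (24.9 and 45.8 RPKM, -0.86 ± 0.27, adjusted p = 0.0459), so that 3 of 9 were lower there beside 10.4% of all genes tested, and 0 higher, beside 4.90%. *zfh1* (15.2 and 26.9 RPKM) and *eya* (24.3 and 47.6) were lower in each LC2 library without passing. In all, 5 of 9 had every LC2 library below LC1, beside 21.4% of all genes. By stage values *shg* and *esg* were at least 4-fold lower, 2 of 9 beside 2.36%, and 0 were higher, beside 0.830%. The *esg* stage difference of -2.06 was -1.56 without LC1 library a and -1.76 without LC2 library a. *so* was the exception among the cyst genes, at 22.5 RPKM in LC2 and 15.8 in LC1 with overlapping libraries. The median difference was -0.80 over the 9 and -0.07 over all genes.

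Markers of other cells also differed between the 2 sets. The 7 fat body and haemocyte genes with a row summed to 122 RPKM in LC2 (89.0 to 156 per library) and 53.6 in LC1 (42.6 to 64.0), with *Yp2* at 0 in LC2. Most of the LC2 sum was *Lsp2*, whose libraries held 77.6, 63.5 and 131 RPKM in LC2 and 24, 12.1 and 9.42 in LC1. *Hml* went the other way, at 2.87, 1.21 and 0.29 RPKM in LC2 and 7.66, 6.51 and 5.11 in LC1. The remaining genes of this list overlapped between the sets. The 8 muscle sheath genes summed to 16.9 RPKM in LC2 (12.1 to 20) and 35.9 in LC1 (30.2 to 46.5), with none at 0 in either set. The germline genes summed to 177 RPKM in LC2 (119 to 209) and 300 in LC1 (231 to 369). Their part in the differences of *shg* and *esg* was not tested.

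**Figure D3:**
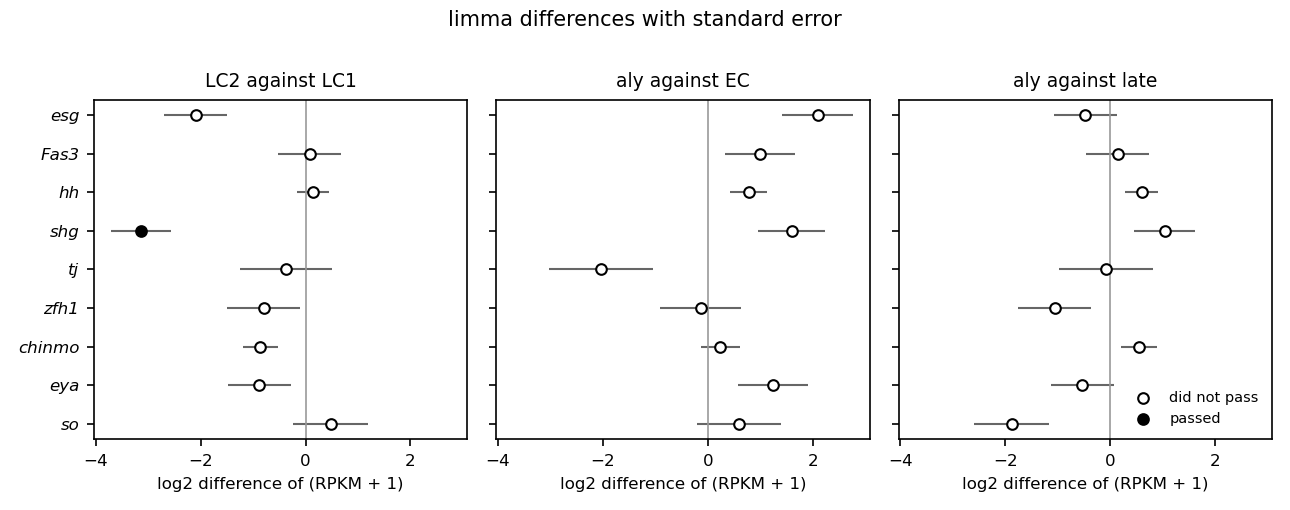
limma log2 difference of (RPKM + 1) for the 9 hub and cyst genes in the 3 comparisons with calls, with standard error. Filled points passed the test. *shg* in LC2 against LC1 (-3.14) is the 1 filled point.

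The *aly* gene encodes a component of the testis meiotic arrest complex, and *aly* mutant cysts stop as spermatocytes. In *aly* against EC 0 of 9 genes passed, beside 8.44% of all genes called higher and 7.11% called lower. *shg* held 25.8 and 26.8 RPKM in *aly* and 5.35 to 12.7 in EC, a difference of 1.60 ± 0.64 (limma, adjusted p = 0.0938). In the fit of *aly* and EC libraries alone it passed (adjusted p = 0.0397), as the 1 of 9 that was higher beside 14.6% of all genes tested, and 0 were lower, beside 16.0%. *esg* held 7.84 and 7.56 RPKM in *aly* and 0 to 3.24 in EC, a difference of 2.09 ± 0.67 (adjusted p = 0.0365) that stayed short of 8 RPKM.

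*eya* held 26.8 and 21.9 RPKM in *aly* and 5.24 to 15.1 in EC, a difference of 1.24 ± 0.67 (limma, adjusted p = 0.223). *hh* reached its highest level of all stages in *aly*, at 7.06 and 3.98 RPKM against 2.40 to 3.0 in EC. *eya*, *esg*, *shg* and *hh* thus had both *aly* libraries above EC, 4 of 9 beside 34.2% of all genes. *tj* held 0.513 and 0.645 RPKM in *aly* and 1.36 to 16.9 in EC, and *zfh1* held 9.67 and 9.41 against 9.86 to 11.7, so both lay below in each library, 2 of 9 beside 25.2%. *chinmo* overlapped, at 47.0 and 59.4 RPKM in *aly* and 32.2 to 62.6 in EC, as did *so* and *Fas3*. By stage values *tj* was at least 4-fold lower in *aly*, 1 of 9 beside 3.61%, and 0 were higher, beside 8.37%. This *tj* difference was -2.49, or -1.46 without EC library c, while that of *esg* was 1.85, or 2.53 without EC library a. The median difference was 0.78 over the 9 and 0.16 over all genes. Under quantile scaling *so* turned negative, at 0.59 as deposited and -0.19 rescaled.

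Against late spermatocytes, 0 of 9 genes passed in *aly*, beside 13.3% of all genes called higher and 17.6% called lower. *so* came closest. It held 5.65 and 2.83 RPKM in *aly* and 11.2 to 28.0 in the 6 late libraries, a difference of -1.88 ± 0.72 (limma, adjusted p = 0.0504). In the fit of *aly* and late libraries alone *so* passed (adjusted p = 0.0018), and so did *zfh1* (9.54 RPKM in *aly* and 22.3 in late spermatocytes, -1.06 ± 0.33, adjusted p = 0.0163), 2 of 9 lower beside 23.4% of all genes tested and 0 higher beside 24.2%. These were also the 2 genes with both *aly* libraries below all late ones, beside 27.4% of all genes. *eya*, the partner of *so*, averaged 24.3 RPKM in *aly* and 38.3 in late spermatocytes with overlapping libraries (-0.53 ± 0.60, adjusted p = 0.532). By stage values 0 of 9 were 4-fold apart, beside 6.75% of all genes higher and 17.4% lower, although *so*, at -1.90, passed 4-fold without *aly* library a (-2.35) or LC2 library c (-2.01), and the median difference was -0.08 over the 9 and 0.06 over all genes. Whether *so* and *eya* differ in their response was not tested.

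*shg* depended on which late set was used. Its 26.3 RPKM in *aly* lay close below the 30.8 of LC1 and far above the 3.24 of LC2. The difference was 1.04 ± 0.58 (limma, adjusted p = 0.173) against both sets and 2.93, past the threshold, against LC2 alone. Against LC2 alone *chinmo* (1.07) and *so* (-2.17) passed as well. The share of all genes called against LC2 alone is not given here, so these calls cannot be set beside it. Of the 3 haemocyte genes with a row, *Hml* and *Pxn* were higher in each *aly* library than in any EC or late library. *Hml* held 30.3 and 23.5 RPKM in *aly*, 0.290 to 7.66 in late spermatocytes and 0 to 2.73 in EC, and *Pxn* held 34.9 and 38.1 RPKM, 1.13 to 7.96 in late spermatocytes and 0 to 1.12 in EC. *crq* was not, at 34.9 and 40.8 RPKM in *aly*, 2.49 to 26 in late spermatocytes and 31.0 to 61.5 in EC. The fat body genes went both ways. *Lsp2* was low, at 1.59 and 3.43 RPKM in *aly*, 9.42 to 131 in late spermatocytes and 10.9 to 26.1 in EC. *Yp3* was low too, at 1.23 and 1.18 RPKM, 6.17 to 19.5 in late spermatocytes and 2.07 to 5.8 in EC. *Yp1* was instead higher in *aly*, at 7.27 and 8.4 RPKM, with at most 0.543 in any EC or late library. *Yp2* was higher as well, at 8.53 and 10.9 RPKM in *aly* and at most 0.197 in those libraries. The list of 7 fat body and haemocyte genes summed to 122 RPKM in *aly* (119 to 126 per library), against 122 in LC2, 53.6 in LC1 and 70.2 in EC (46.8 to 82.8), with none at 0 in *aly* and *Yp2* at 0 in EC. Their part in the *aly* values of the 9 genes was not tested.

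Partners of the 9 genes were counted in lists, and the shares of all genes called are those above. Of 12 Hedgehog reception and processing genes, 0 rose and 1 fell in LC2 against LC1, beside 1.14% and 3.37% of all genes, and the median difference was -0.46 over the list and -0.07 over all genes. That gene was *ptc*, the Hedgehog receptor and a target of the pathway, at 0.678 to 1.23 RPKM in LC2 and 8.84 to 11.9 in LC1 (-2.50 ± 0.44, limma, adjusted p = 0.00419). *hh* itself averaged 3.51 RPKM in LC2 and 3.04 in LC1 and could not be called. *ptc* libraries held 9.50 and 1.76 RPKM in niche and none in GB, and *ci*, the transcription factor of the pathway, 8.69 and 34.9 in niche and 10.6 and 0.279 in GB. In *aly* against EC 1 of 12 rose and 1 fell, beside 8.44% and 7.11% of all genes. *boi*, a co-receptor, rose by 2.58 and *rasp*, which acylates the ligand, fell by 3.19. In *aly* against late spermatocytes 1 of 12 also rose and 1 fell, beside 13.3% and 17.6%. There *boi* rose by 1.66 and *ttv*, an enzyme of heparan sulphate synthesis, fell by 3.70.

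Of 6 JAK-STAT genes, 2 fell in LC2 against LC1, beside 3.37% of all genes, and 0 rose, beside 1.14%, with a median difference of -0.99 over the list. They were the kinase *hop* (4.79 RPKM in LC2 and 26.5 in LC1, -2.33) and the receptor *dome* (9.83 and 32.9, -1.63). The target *Socs36E* held 52.5 and 9.84 RPKM in niche and none in GB. In *aly* against EC 0 of 6 passed, beside 8.44% of all genes higher and 7.11% lower. In *aly* against late spermatocytes 1 of 6 rose, *Stat92E*, the transcription factor, by 1.25, beside 13.3%, and 1 fell, *ken*, by 4.10, beside 17.6%. Of the 9 other hub genes 0 passed in LC2 against LC1. 2 of 9 fell in *aly* against EC and 1 in *aly* against late spermatocytes, beside the same 7.11% and 17.6%, and 0 rose. *hdc* fell by 2.01 and *arm* by 1.18 in *aly* against EC, and *os* fell by 3.06 in *aly* against late spermatocytes (1.71 RPKM in *aly* and 20.3 in late spermatocytes). *os* and *esg* were thus both present in late libraries, at 11 to 35.3 and 1.94 to 36.3 RPKM. The other genes of the hub list were mixed there. *gbb* held 244 and 155 RPKM in niche and 7.01 to 10.5 in late libraries, and *magu* 180 and 50.8 against 5.99 to 21.5. *arm* and *upd3* also lay below niche in every late library. *CadN*, *upd2* and *dpp* overlapped niche, and *hdc* was higher in every late library.

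Of 6 relatives and partners of *eya* and *so*, 0 passed in LC2 against LC1. In *aly* against EC 2 of 6 rose, beside 8.44% of all genes, and 0 fell, beside 7.11%. *dac* rose by 3.39 (19.2 RPKM in *aly* and 0.993 in EC) and *tsh* by 3.85 (36.8 and 1.91). In *aly* against late spermatocytes 1 of 6 rose and 1 fell, beside 13.3% and 17.6%. *tsh* rose by 3.15 and *Optix* fell by 3.92 (4.54 and 78.2 RPKM). *Optix* and *so* both had smaller values in *aly* than in late spermatocytes, but *so* did not pass. *Six4* held 12.6 and 61 RPKM in niche and none in GB.

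Of 5 adherens junction partners of *shg*, 0 passed in LC2 against LC1, beside 1.14% of all genes higher and 3.37% lower. *arm* was lower in each LC2 library, at 34.8 RPKM in LC2 and 69.6 in LC1 (-0.98 ± 0.31, limma, adjusted p = 0.0755). *arm* fell in *aly* against EC, as the 1 call of 5, beside 7.11% of all genes, while *baz* (2.25) and *alpha-Cat* (1.43) rose in *aly* against late spermatocytes, 2 of 5 beside 13.3%. Of 11 septate junction genes listed with *Fas3*, *Atpalpha* (-2.60) and *Nrx-IV* (-1.30) fell in LC2 against LC1, 2 of 11 beside 3.37% of all genes, and 0 rose, beside 1.14%, with a median difference of -1.20 over the list. In each *aly* comparison 1 of 11 fell, beside 7.11% against EC and 17.6% against late spermatocytes, and 1 rose against late spermatocytes, beside 13.3%. *l(2)gl* fell by 1.80 in *aly* against EC and by 2.23 against late spermatocytes, where *Nrx-IV* rose by 1.42. A list of 6 genes linked to *chinmo* held the sex determination genes *dsx*, *tra*, *tra2* and *ix*, together with *Imp* and *br*. Of these, *Imp* rose by 1.42 in *aly* against EC, 1 of 6 beside 8.44% of all genes, and was the 1 call in the 3 comparisons. Of 5 relatives of *tj*, *esg* and *zfh1*, 4 had a row, 3 were tested and 0 passed in these comparisons.

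Stage profiles close to those of the 7 genes that reach 8 RPKM were sought among 10578 genes that do so too, by Pearson's r of log2(RPKM + 1) over the 9 stages. The 9 stage values rest on few libraries that differ in depth, so r is a description. *tj* was closest to *SF2* (0.961), *Mapmodulin* (0.959) and *Act5C* (0.955), all highest in niche. *esg* was closest to *rdo* (0.968), *Adgf-A* (0.949) and *CrebA* (0.928), also highest in niche. *shg* was closest to *CG3558* (0.992), *CG42588* (0.984) and *xmas-1* (0.979), and *chinmo* to *Rop* (0.985), *CG42389* (0.983) and *CG13609* (0.980).

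For *zfh1* the closest were *CG11779* (0.966), *f-cup* (0.956) and *mrj* (0.946), and for *eya* they were *CG15728* (0.950), *mrj* (0.945) and *CG17544* (0.943). *so* was closest to *CG33655* (0.986), *TSG101* (0.970) and *CG1124* (0.965). Over the 20 libraries r was lower for each of these pairs, at 0.66 (*so* with *CG1124*) to 0.95 (*shg* with *CG42588*). Among the 9 genes themselves, r over the 9 stages was highest between *esg* and *Fas3* (0.93) and between *zfh1* and *eya* (0.90). Over the 20 libraries these were 0.63 and 0.82.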

How the data were processed

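RNA of 19 labelled libraries in 9 groups was reverse transcribed with poly-dT primers and amplified, per the labels' protocols. Bowtie 0.12.7 and edgeR are named, without a role, in the submitters' processing notes. The authors deposited RPKM (cRPKM in the title line), 1 value per stage. Not given in the sources used here are genome build, annotation and duplicate handling. Each value proved to be a mean of whole reads over gene length and a size per library that differs from the recovered reads. This gave the reads of 20 libraries for 12805 of 12810 genes (99.96%). The recovery was tested on simulated data. Floors of 3 reads cover counting error only, since amplified cDNA without molecular identifiers does not count molecules. limma 3.58.1 (R 4.3.3) fitted 9 group means to log2(RPKM + 1) with a trend (11 residual and 3.9 prior degrees of freedom) over 12480 genes with at least 1 RPKM in 2 libraries. Tests are two-sided. Calls are given where under 5% of calls in simulated data were false. For fits of both sides alone, this is stated here only for EC against spermatogonia. S16, with 1 library, was assumed to vary like the others. The genes named are the 9, the 3 closest profiles of each and up to 3 called genes per list and comparison, plus those whose levels stand beside a result. The 9 genes, the lists and the tests were chosen with earlier results of these data known. Pseudocounts, filters, scalings, weights, stage definitions, fits of both sides alone and each library left out were tried.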

Additional observations from a re-analysis of the deposited data

How the results depend on the processing

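No paired analysis was possible because the recovered libraries carry no replicate number. Of 376 alternatives for the 9 genes in the 3 comparisons with calls, 354 kept the call or its absence, 21 added a call and 1 lost one. Of 675 alternatives for the 9 genes in the other comparisons, 579 moved by less than the spread within stages and 96 by more. No called value changed sign. Of 14 differences of at least 4-fold among the 9 genes in those other comparisons, 10 fell short of 4-fold with a pseudocount of 5, 6 under quantile scaling and 1 when scaled to total recovered reads.
The counts over all genes were less stable. With a pseudocount of 0.1 they were 3044 in spermatogonia against niche (1979 with a pseudocount of 1), 2526 in S4 against GB (1655), 1635 in S8 against S4 (880), 2250 in S16 against S8 (1346), 4699 in EC against spermatogonia (3047) and 233 in LC2 against LC1 (563). With a pseudocount of 5 they were 851, 657, 219, 477, 1417 and 913 in the same order, and 1056 in GB against niche (2217). LC2 against LC1 gave 1029 under quantile scaling, 1631 with a weight per stage and 1735 in a fit of both sides alone. *aly* against EC (1940) gave 3486 and 3372 with the last 2 of these, and *aly* against late (3855) gave 6317 with a weight per stage. At 2-fold and 8-fold the counts were 4234 and 871 in spermatogonia against niche, 4483 and 1146 in GB against niche, 3434 and 793 in S4 against GB, 2284 and 383 in S8 against S4, 3296 and 686 in S16 against S8, 6121 and 1548 in EC against spermatogonia and 6679 and 1894 in late against EC (3500).
Leaving out each library in turn gave 186 (without LC1 library c) to 986 (without LC2 library a) in LC2 against LC1, with 244 and 245 without LC1 libraries a and b and 227 and 190 without LC2 libraries b and c. It gave 712 to 2076 in *aly* against EC, with 712 and 1037 without *aly* libraries a and b, and 2375 to 3978 in *aly* against late, with 2496 and 2375 without them. It gave 992 to 1326 in S8 against S4, with 1326 without S4 library b. The causes were not tested. Depth limits *Fas3* and *hh*, whose niche values rest on 1 to 59 and 3 to 4 reads.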
